A study of Arabidopsis thaliana with 32 samples.

Results

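Cytokinins are adenine-derived hormones that promote cell division in the shoot, restrain root growth and delay leaf senescence. Adenylate isopentenyltransferases (IPT) catalyse the first step of their synthesis by joining a prenyl side chain to an adenine nucleotide. Cytokinin oxidases/dehydrogenases (CKX) inactivate the hormone irreversibly by cleaving that side chain, and the balance of both enzyme families sets how much active cytokinin a tissue holds. The genes described here are 10 of the 30385 loci measured, taken by locus: the 3 synthesis genes IPT3 (AT3G63110), IPT5 (AT5G19040) and IPT7 (AT3G23630), and the 7 degradation genes CKX1 (AT2G41510), CKX2 (AT2G19500), CKX3 (AT5G56970), CKX4 (AT4G29740), CKX5 (AT1G75450), CKX6 (AT3G63440) and CKX7 (AT5G21482). All 10 were found under these symbols in the reference annotation.

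RNA came from whole seedlings of Arabidopsis thaliana that were either sahh1 mutant or Columbia wild type, each aged 1, 4, 7 or 10 days. Each of the 8 groups was measured on 4 single-colour NimbleGen arrays. The mutant has too little S-adenosylhomocysteine hydrolase 1 (SAHH1), the enzyme that clears the by-product of methylation reactions, and the labels give neither the allele nor the growth conditions. The study compared both genotypes at each of these seedling ages.

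Arrays 1 and 2 of a group were averaged into 1 sample, and arrays 3 and 4 into another, so n is 2 samples per group. The labels do not say whether replicates are separate cultures, so p-values measure only the spread between these samples, which may be technical. Levels are log2 intensities, and differences are sahh1 minus wild type with the standard error from limma. A difference is called at a Benjamini-Hochberg adjusted p under 0.05 over all 30385 loci in limma. Where samples or arrays did not overlap at a single age, the share of all loci doing so was not counted. With 2 samples against 2, such a separation has an exact permutation p of 0.333. Probes differ between genes, so levels were not set against each other between genes. In whole seedlings, fewer cells of a type and less RNA per cell cannot be told apart.

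The targeted transcript SAHH1 (AT4G13940) was lower in sahh1 on the mean of the 4 ages (-1.01 ± 0.12, adjusted p = 0.000316, limma). Its difference was -1.26 at day 1 and -1.53 at day 4, both called (adjusted p = 0.0117 and 0.0144, limma). It was -0.48 at day 7 and -0.77 at day 10, neither called (adjusted p = 0.723 and 0.276, limma). These results at single ages depended on the setting. The day 4 call was lost with array weights (adjusted p = 0.103) and with the groups of that age alone (0.542, limma). Day 10 was called with array weights (adjusted p = 0.0226, limma). Leaving out any single sample of day 1 gave day 1 differences of -1.20 to -1.33. Array medians were 995 to 1054 intensity units for day 1, 449 to 493 for day 4, 1793 to 1945 for day 7 and 956 to 982 for day 10. Ages were therefore compared only after quantile normalization, and genotypes within an age on the values as deposited. The F test of whether a genotype difference changed with age also used the quantile-normalized values. The sahh1 seedlings of day 4 stood apart in spread: the median gap between their samples was 0.55 for the 10 genes and 0.40 over all loci, against 0.15 to 0.41 and 0.13 to 0.19 in the other 7 groups. Of 8 root hair markers 7 were called lower in sahh1 on the mean of ages, and of 10 root markers 2, the aquaporins TIP2;3 and PIP2;4. Those 2 went against most of their list, since 7 of the 10 root markers had a positive difference and 3 a negative one (median 0.04). None of the 8 photosynthesis markers was called on that mean (adjusted p under 0.05, limma).

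Among the synthesis genes, IPT7 lay higher in the sahh1 samples than in the wild-type samples at every age, and it was the only one of the 10 genes whose difference over the 4 ages together was called. IPT5 lay lower in sahh1 in every sample without being called, and IPT3 lay below wild type at day 1 and above it at day 7, also without a call. On the mean of the ages 1 of the 10 genes was therefore called, higher in sahh1, against 3.48% of all loci called in either direction and 2.45% called higher. The median difference of the 10 genes was -0.07, and that of all loci -0.01.

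IPT7, whose product is an adenylate isopentenyltransferase known from the root endodermis and as a target of KNOX homeodomain factors, had log2 intensities of 7.44 and 7.80 in sahh1 at day 1, against 7.09 and 7.29 in wild type. At day 4 it read 6.49 and 6.10 in sahh1 and 5.76 and 5.51 in wild type. At day 7 its levels were 7.68 and 7.60 in sahh1 and 6.87 and 6.23 in wild type. Both sahh1 samples stood above both wild-type samples at these ages, and at day 7 all 4 sahh1 arrays stood above all 4 wild-type arrays. At day 10 the samples read 6.64 and 6.21 in sahh1 against 6.13 and 5.98 in wild type, again without overlap. A separation of this kind at all 4 ages was found in 0.964% of loci.

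The IPT7 difference was 0.43 ± 0.24 at day 1, 0.66 ± 0.24 at day 4, 1.09 ± 0.24 at day 7 and 0.37 ± 0.24 at day 10. None of these was called alone (adjusted p = 0.921, 0.210, 0.0917 and 1.00, limma). The day 4 difference was called after quantile normalization (adjusted p = 0.0419), and the day 7 difference was 1.41 and called without wild-type sample 1 of that age (0.0411, limma). Both were called with 32 arrays as replicates (0.0352 and 0.00321). Averaged over the ages it was 0.64 ± 0.12 with a 95% interval of 0.38 to 0.90, a 1.56-fold higher level in sahh1 (adjusted p = 0.0101, limma). The call was kept in each of 25 alternative settings, with differences of 0.56 to 0.72 and adjusted p-values up to 0.0417. Without sample 2 of the sahh1 seedlings at day 4 the difference was 0.69 (adjusted p = 0.00825, limma). That sample is the mean of arrays reading 6.71 and 5.48, and the lower of them lay within the wild-type range of 5.37 to 5.79. The size of the difference did not change detectably with age (F test over the ages, adjusted p = 0.731, limma).

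**Figure D1:**
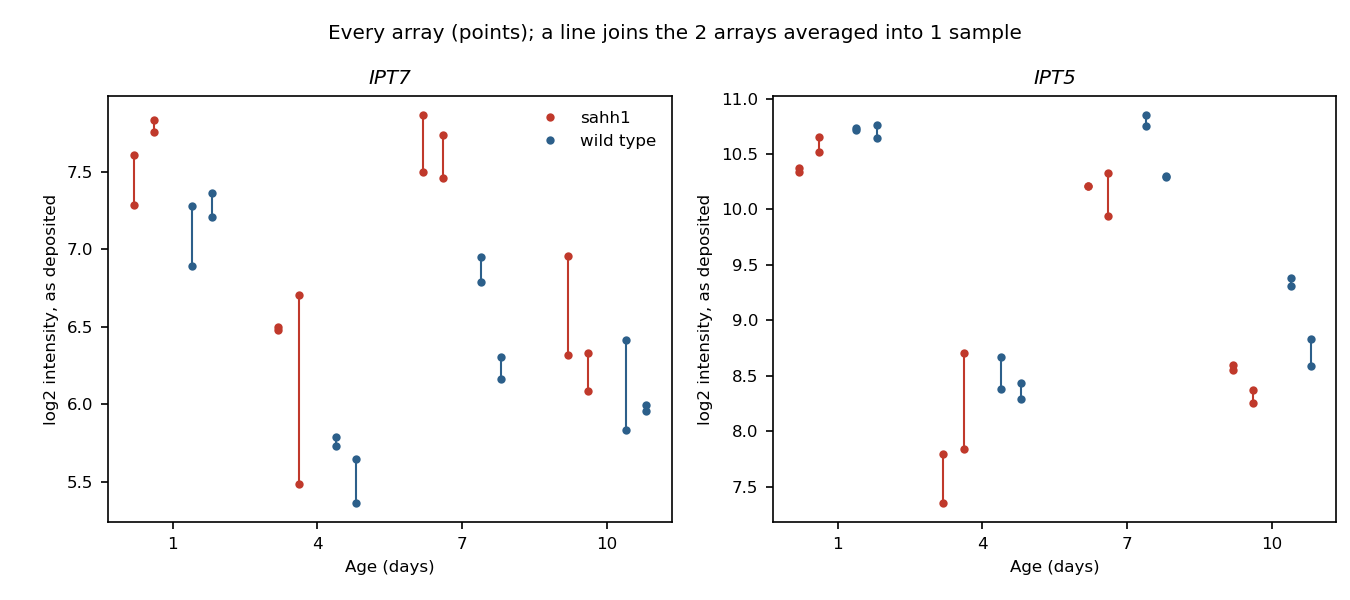
Log2 intensity, as deposited, of IPT7 (left) and IPT5 (right) on every array by seedling age in days. Points are arrays, red for sahh1 and blue for wild type, and each line joins the 2 arrays averaged into 1 sample. For IPT7 the sahh1 sample means lie above the wild-type ones at all 4 ages, and for IPT5 below them, with arrays of both genotypes overlapping at most ages.

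IPT5, an isopentenyltransferase known from lateral root primordia and the root cap and induced by auxin, had 10.35 and 10.59 in sahh1 against 10.72 and 10.70 in wild type at day 1. At day 4 the values were 7.58 and 8.27 in sahh1 and 8.53 and 8.36 in wild type. At day 7 they were 10.21 and 10.13 in sahh1 and 10.80 and 10.30 in wild type. Each sahh1 sample lay below each wild-type sample, although single arrays overlapped at every age. At day 10 IPT5 read 8.57 and 8.31 in sahh1 and 9.35 and 8.71 in wild type. Of all loci 0.428% had both sahh1 samples below both wild-type samples at all 4 ages.

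On the mean of the ages IPT5 differed by -0.43 ± 0.13 (95% interval -0.72 to -0.14), which was not called after adjustment over all loci (adjusted p = 0.134, unadjusted p = 0.00735, limma). At single ages the differences were -0.24 at day 1, -0.52 at day 4, -0.38 at day 7 and -0.59 at day 10. The mean over ages was called in 2 of 25 alternative settings. These were the fit without sample 2 of the sahh1 seedlings at day 4 (-0.52, adjusted p = 0.0289, limma) and the fit that counts all 32 arrays as replicates (adjusted p = 0.00303, limma).

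IPT3, the isopentenyltransferase of the phloem that responds to nitrate, read 6.41 and 6.77 in sahh1 and 7.11 and 7.02 in wild type at day 1. At day 7 it read 12.39 and 12.54 in sahh1 and 11.90 and 12.19 in wild type. At both ages all 4 arrays of one genotype were separated from those of the other, sahh1 below wild type at day 1 and above it at day 7. At days 4 and 10 the samples overlapped, with 9.69 and 10.56 in sahh1 against 10.36 and 10.37 in wild type at day 4, and 11.01 and 11.04 in sahh1 against 10.76 and 11.33 in wild type at day 10. The differences were -0.47 ± 0.27, -0.24 ± 0.27, 0.42 ± 0.27 and -0.02 ± 0.27 at days 1, 4, 7 and 10, none called (adjusted p of 0.741 or more, limma). The change of the difference with age was not called either (F test on quantile-normalized values, adjusted p = 0.809, limma).

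Among the degradation genes none of the 7 was called at a single age or over the ages together. At day 1 the calls among all 10 genes were 0, against 2.46% of all loci, and at day 4 they were 0 against 1.61%. At day 7 they were 0 against 0.629%, and at day 10 they were 0 against 1.02%. At an unadjusted p under 0.05 the counts of the 10 genes were 0 at day 1 (7.44% of loci), 3 at day 4 (15.1%), 1 at day 7 (7.47%) and 2 at day 10 (6.98%), and 3 on the mean of the ages (12.6%). On that mean 6 of the 7 CKX genes had a negative difference, from -0.30 to -0.00, and CKX2 a positive one of 0.12.

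CKX5, which acts with CKX3 in limiting the size of reproductive meristems, had the most negative mean difference of the degradation genes, -0.30 ± 0.12 (95% interval -0.55 to -0.04, adjusted p = 0.280, limma). At day 1 it read 10.66 and 10.78 in sahh1 against 10.55 and 10.43 in wild type, with all 4 sahh1 arrays above. At day 4 it read 7.06 and 6.88 in sahh1 against 7.47 and 7.58 in wild type. The order of the genotypes was thus turned round between those ages. At day 10 it read 8.35 and 8.39 in sahh1 and 9.27 and 8.69 in wild type, with all 4 sahh1 arrays below, and at day 7 the samples overlapped (9.19 and 8.86 in sahh1, 9.62 and 8.97 in wild type). The differences were 0.23, -0.55, -0.27 and -0.61 at days 1, 4, 7 and 10. A change with age was not called by the F test on quantile-normalized values (adjusted p = 0.672, limma).

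CKX3, a vacuolar cytokinin oxidase, came closest of the 10 genes to a genotype difference that changed with age (F test, adjusted p = 0.0726, limma). That F test used quantile-normalized values, while the levels and differences that follow are as deposited unless stated. By the F test 0 of the 10 genes were called, against 0.615% of loci, and 1 had an unadjusted p under 0.05, against 9.56%. CKX3 read 6.79 and 7.16 in sahh1 against 7.36 and 7.55 in wild type at day 1, and 5.37 and 5.59 in sahh1 against 6.08 and 5.93 in wild type at day 4. Both sahh1 samples lay below wild type at these ages. At day 7 the samples overlapped at 6.44 and 7.16 in sahh1 and 6.61 and 6.14 in wild type, and at day 10 both sahh1 samples (5.76 and 5.87) lay above wild type (5.51 and 5.67). The differences were -0.48, -0.53, 0.42 and 0.23 at the successive ages, each ± 0.24, and none was called (adjusted p of 0.325 or more, limma). The change with age was called once either sahh1 sample of day 4 was left out (adjusted p = 0.0416 without sample 1 and 0.0307 without sample 2, limma). After quantile normalization the day 4 difference of CKX3 was -1.22 and was called (adjusted p = 0.00892, limma). On that scale the wild-type day 4 samples are means of arrays reading 5.46 and 7.52, and 7.34 and 5.08. The sahh1 arrays there read 4.54, 5.44, 4.74 and 5.79, overlapping the lower wild-type ones. The sample means do not show this gap within pairs.

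CKX4, an oxidase known from the root cap, lay lower in sahh1 at day 7 on all 4 arrays, with samples of 11.97 and 12.10 against 12.47 and 12.21 in wild type. Its differences were -0.07, -0.35, -0.31 and -0.05 at days 1, 4, 7 and 10, and -0.19 ± 0.10 on their mean (adjusted p = 0.493, limma). The secreted CKX2, the vacuolar CKX1, the cytosolic CKX7 and CKX6, which is known from the shade response of leaf primordia, had differences between -0.40 (CKX6 at day 1) and 0.43 (CKX2 at day 7). None of these 4 genes had an unadjusted p under 0.05 at any age. For CKX1 at day 4 the 95% interval ran from -1.09 to 0.77. Sample 2 of sahh1 there is the mean of arrays reading 8.25 and 6.50.

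**Figure D2:**
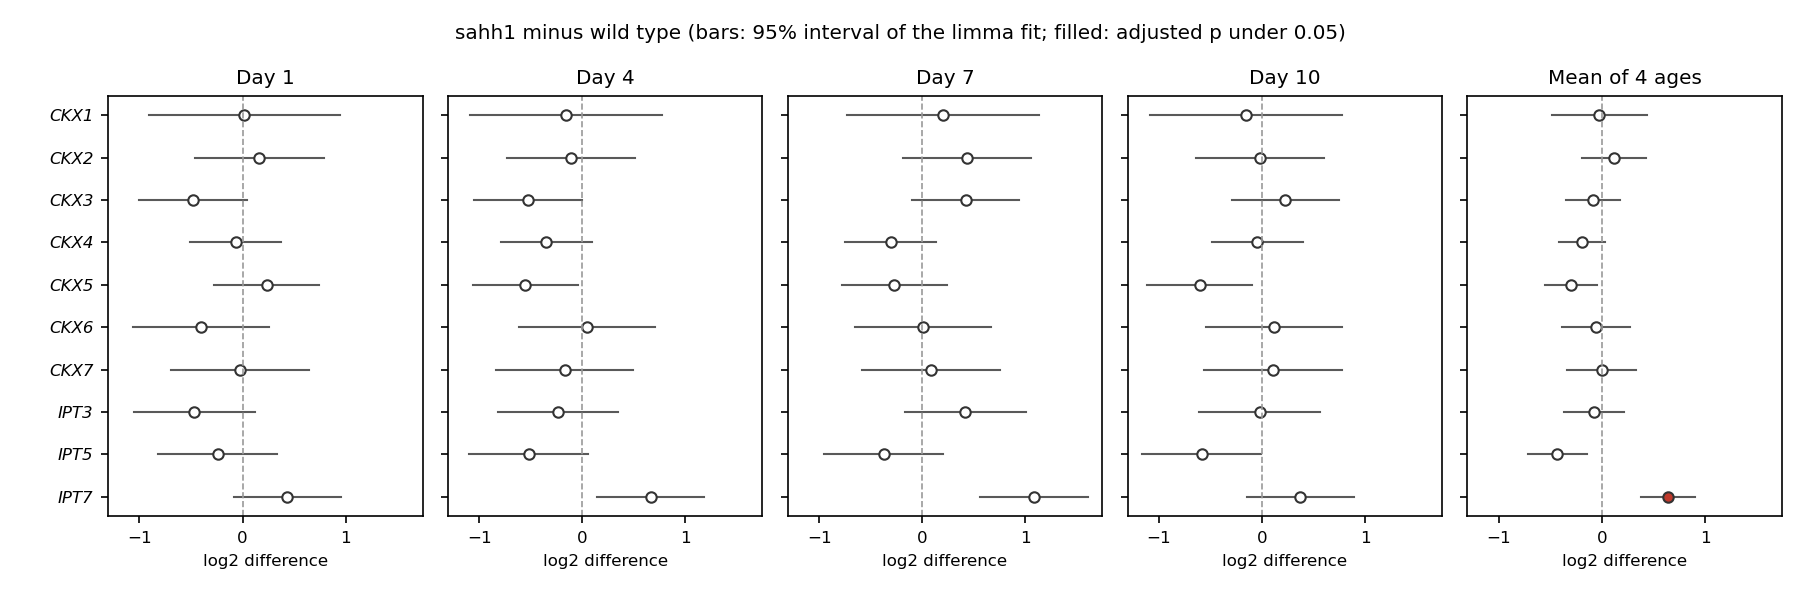
Log2 difference, sahh1 minus wild type, for the 10 genes (down the page) in panels for the single ages and for the mean of the 4 ages. Points are limma estimates from 2 samples per group, bars are 95% intervals and a filled point has an adjusted p under 0.05. The filled point is IPT7 on the mean of the ages, at 0.64.

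Of the 8 root hair markers, 0 were called at day 1, 2 at day 4, 0 at day 7 and 7 at day 10, all lower in sahh1, and their levels are set beside these results. Their mean log2 level was 12.81 and 12.91 in sahh1 against 12.95 and 12.83 in wild type at day 1, and 8.58 and 8.80 in sahh1 against 9.67 and 10.23 in wild type at day 4. At day 7 it was 9.21 and 8.63 in sahh1 and 9.98 and 9.45 in wild type, and at day 10 it was 7.22 and 6.76 in sahh1 and 9.07 and 8.81 in wild type. The 10 root markers together averaged 10.20 and 10.39 in sahh1 against 10.28 and 10.17 in wild type at day 1, and 11.45 and 11.34 in sahh1 against 11.26 and 11.35 in wild type at day 7. At days 4 and 10 they averaged 9.28 and 9.17, and 10.21 and 9.80, in sahh1, against 9.75 and 9.60, and 10.21 and 10.13, in wild type. At day 4, 5 root markers were higher and 5 lower in sahh1, with a median difference of -0.08 and a lowest of -2.73. At day 10, 4 were higher and 6 lower, with a median of -0.01. Root hair markers were lowest relative to wild type at day 10, and the IPT7 difference was widest at day 7. The part of seedling make-up in the IPT7, IPT5 and CKX differences was not tested.

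More of the 10 genes differed between ages than between genotypes. Between days 4 and 1, after quantile normalization, 4 genes rose in both genotypes (IPT3, CKX2, CKX4 and CKX6) and 4 fell in both (IPT5, IPT7, CKX3 and CKX5). CKX1 and CKX7 were called in neither. CKX7 came near a call in wild type (0.74 ± 0.29, adjusted p = 0.0558, limma). Some alternative settings, such as cyclic loess and array weights, called it there, and others did not. The count of 8 of 10 genes stands against 49.1% of all loci called in sahh1 and 51.8% in wild type, and 39.7% called in the same direction in both. Called higher were 22.8% of loci in sahh1 and 24.1% in wild type, and called lower 26.3% in sahh1 and 27.7% in wild type. Array medians also differ by age, so an effect of age and one of normalization or hybridisation by age cannot be told apart.

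IPT3 rose most, with quantile-normalized levels of 10.68 and 11.56 at day 4 and 6.76 and 6.98 at day 1 in sahh1, and 11.39 and 11.39 at day 4 and 7.36 and 7.29 at day 1 in wild type. The increase was 4.25 ± 0.27 in sahh1 and 4.06 ± 0.27 in wild type, which is 19.0-fold and 16.7-fold (adjusted p = 4.15e-07 and 5.80e-07, limma). From day 4 on the 6 group means of IPT3 lay between 11.04 and 11.61. From the highest, the order ran sahh1 day 7, wild type day 4, wild type day 7, sahh1 day 4, wild type day 10 and sahh1 day 10. Samples of neighbouring groups overlapped from wild type day 7 downwards, and the groups above it did not overlap with their neighbours. Wild type and sahh1 at day 1, at 7.33 ± 0.05 and 6.87 ± 0.15 (SD, n = 2), stood far below all of these.

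CKX4 followed the same course, with 11.51 and 11.45 at day 4 against 7.93 and 7.88 at day 1 in sahh1, and 12.10 and 11.57 at day 4 against 8.04 and 7.90 at day 1 in wild type. It was 3.58 ± 0.20 higher at day 4 in sahh1 (11.9-fold) and 3.87 ± 0.20 higher in wild type (14.6-fold). From day 4 on the group means were 11.15 to 11.84, and samples of neighbours in that order overlapped except for sahh1 at day 7, which lay lowest. CKX6 rose by 2.23 ± 0.31 in sahh1 and 1.85 ± 0.31 in wild type, and CKX2 by 1.83 ± 0.30 in sahh1 and 2.27 ± 0.30 in wild type. CKX2 began near the floor of the arrays: at day 1 it stood at percentile 19.3 of all loci in sahh1 and 19.6 in wild type, so its rise depends on the background there.

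CKX5 fell by 2.66 ± 0.24 in sahh1 and by 1.81 ± 0.24 in wild type, to levels of 7.71 and 8.17 at day 4 in sahh1, against 10.58 and 10.63 at day 1, and 8.47 and 8.63 at day 4 in wild type, against 10.40 and 10.32 at day 1. CKX3 fell by 2.06 ± 0.20 in sahh1 and by 1.28 ± 0.20 in wild type. IPT5 fell by 1.45 ± 0.32 in sahh1 and by 1.09 ± 0.32 in wild type. The IPT5 call in wild type was lost without wild-type sample 1 or 2 of day 1 or without wild-type sample 2 of day 4 (adjusted p = 0.0609, 0.0632 and 0.0689, limma). The CKX3 call in wild type was lost with the sample as a random block (adjusted p = 0.111, limma).

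IPT7 fell by 1.06 ± 0.26 in sahh1 and by 1.84 ± 0.26 in wild type. The sahh1 call was lost with array weights (adjusted p = 0.0764) and with the sample as a random block (0.140, limma). Its group means after quantile normalization ran from 7.75 ± 0.16 in sahh1 at day 1 and 7.42 ± 0.11 in wild type at day 1 to 5.58 ± 0.53 in wild type at day 4 (SD, n = 2). Between them stood the later sahh1 groups, at 6.69 ± 0.35 at day 4, 6.67 ± 0.05 at day 7 and 6.41 ± 0.23 at day 10, and then wild type at 6.11 ± 0.10 at day 10 and 5.77 ± 0.34 at day 7. Samples of sahh1 at day 4 overlapped those of sahh1 at days 7 and 10, and samples of wild type at day 4 overlapped those of wild type at day 7, while other neighbours in this order did not overlap. All of these means lay between percentiles 25.7 and 37.7 of all loci, in the lower part of the range of the arrays.

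The changes of the genotype difference between days 4 and 1 were called for none of the 10 genes, against 1.1% of loci. The CKX5 value was -0.85 ± 0.34 (adjusted p = 0.311, limma), the CKX3 value -0.77 ± 0.28 (adjusted p = 0.250) and the IPT7 value 0.77 ± 0.37 (adjusted p = 0.406). The decreases of CKX3, CKX5 and IPT5 in sahh1 and in wild type were therefore not shown to differ in size.

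**Figure D3:**
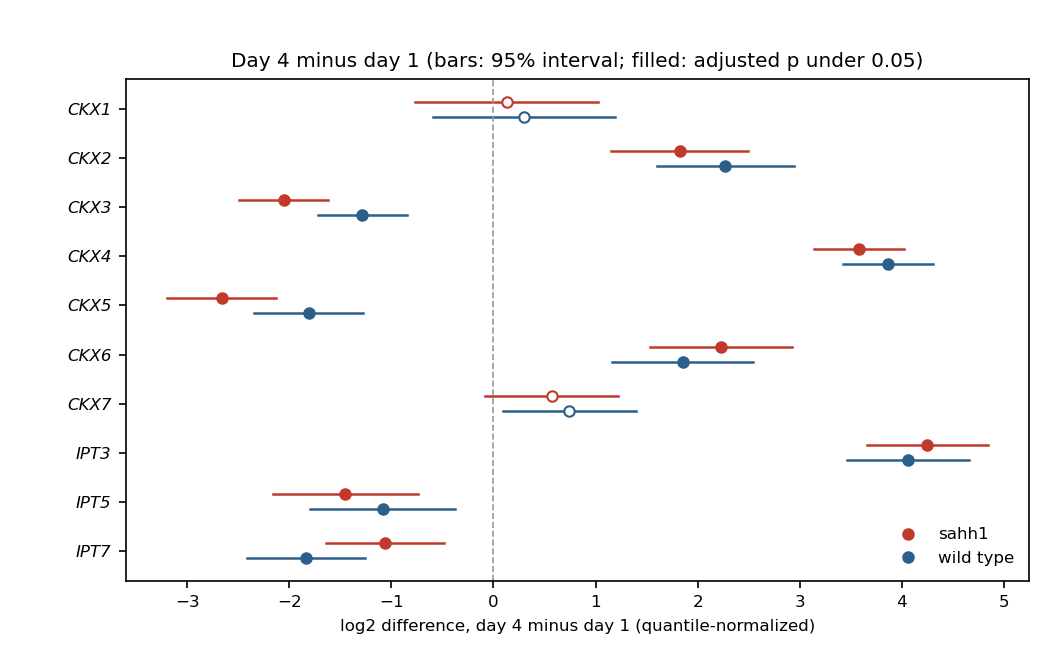
Log2 difference between day 4 and day 1 (quantile-normalized) for each of the 10 genes, with sahh1 in red above wild type in blue. Points are limma estimates, bars 95% intervals, and filled points have an adjusted p under 0.05. IPT3 and CKX4 rose by 3.58 to 4.25 in both genotypes, CKX5 fell by 2.66 in sahh1 and 1.81 in wild type, and CKX1 and CKX7 were called in neither.

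The fall of CKX3 and IPT7 depended on the scale. With levels set to reference genes the median of all loci moved by 0.82 between days 4 and 1 in sahh1 and by 0.80 in wild type. On that scale IPT7 stood at 0.040 in sahh1 and -0.28 in wild type, and CKX3 at -0.13 in sahh1 and -0.17 in wild type. Relative to the median of all loci all 16 calls of this step kept their direction under reference-gene scaling, under cyclic loess and on the deposited values.

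After day 4 few changes were called. Between days 7 and 4 the 1 gene called was CKX3, in sahh1 (11.6% of loci) and in wild type (22.3% of loci), in opposite directions. Of all loci 5.72% were called higher in sahh1 and 11.4% lower in wild type. CKX3 rose by 0.89 ± 0.20 in sahh1 (adjusted p = 0.0182, limma), with 5.78 and 6.25 at day 7 against 4.99 and 5.26 at day 4. It fell by 0.72 ± 0.20 in wild type (adjusted p = 0.0263, limma), with 5.80 and 5.47 at day 7 against 6.49 and 6.21 at day 4. Those wild-type day 4 values are means of arrays far apart, at 5.46 and 7.52, and at 7.34 and 5.08. The difference between these changes was 1.61 ± 0.28 and was not called over all loci (unadjusted p = 0.000144, adjusted p = 0.0733, limma), where 0.0296% of loci were called. In sahh1 the rise relative to the median of all loci turned to -0.12 on the deposited values and with reference-gene scaling. It was also lost without sample 2 of sahh1 at day 7 (adjusted p = 0.128), and the wild-type fall without sample 1 of day 4 (0.135) or sample 2 of day 7 (0.167, limma). With cyclic loess CKX3 was called in neither genotype (adjusted p = 0.166 in sahh1 and 0.164 in wild type), and CKX2 was called higher at day 7 in both (0.00716 in sahh1 and 0.0349 in wild type, limma). Each CKX3 call held in 18 of 24 alternative settings.

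CKX3 was highest in wild type at day 1 (7.63 ± 0.12), followed by sahh1 at day 1 (7.18 ± 0.15) and wild type at day 4 (6.35 ± 0.20; SD, n = 2). The next 4 groups, sahh1 at day 7, sahh1 at day 10, wild type at day 10 and wild type at day 7, lay at 6.02 to 5.63 and their samples overlapped with those of their neighbours. The sahh1 group of day 4 stood lowest at 5.12 ± 0.19, near percentile 20.3 of all loci. The SD given for wild type at day 4 is between sample means, and its single arrays ran from 5.08 to 7.52. Between days 10 and 7 no gene was called in sahh1 (0.467% of loci) or wild type (0.293%). At an unadjusted p under 0.05 there were 2 genes in sahh1 (16.3% of loci), CKX2 at -0.75 and IPT5 at -0.77, and 2 in wild type (16.6%), CKX1 at 0.93 and CKX5 at 0.62.

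**Figure D4:**
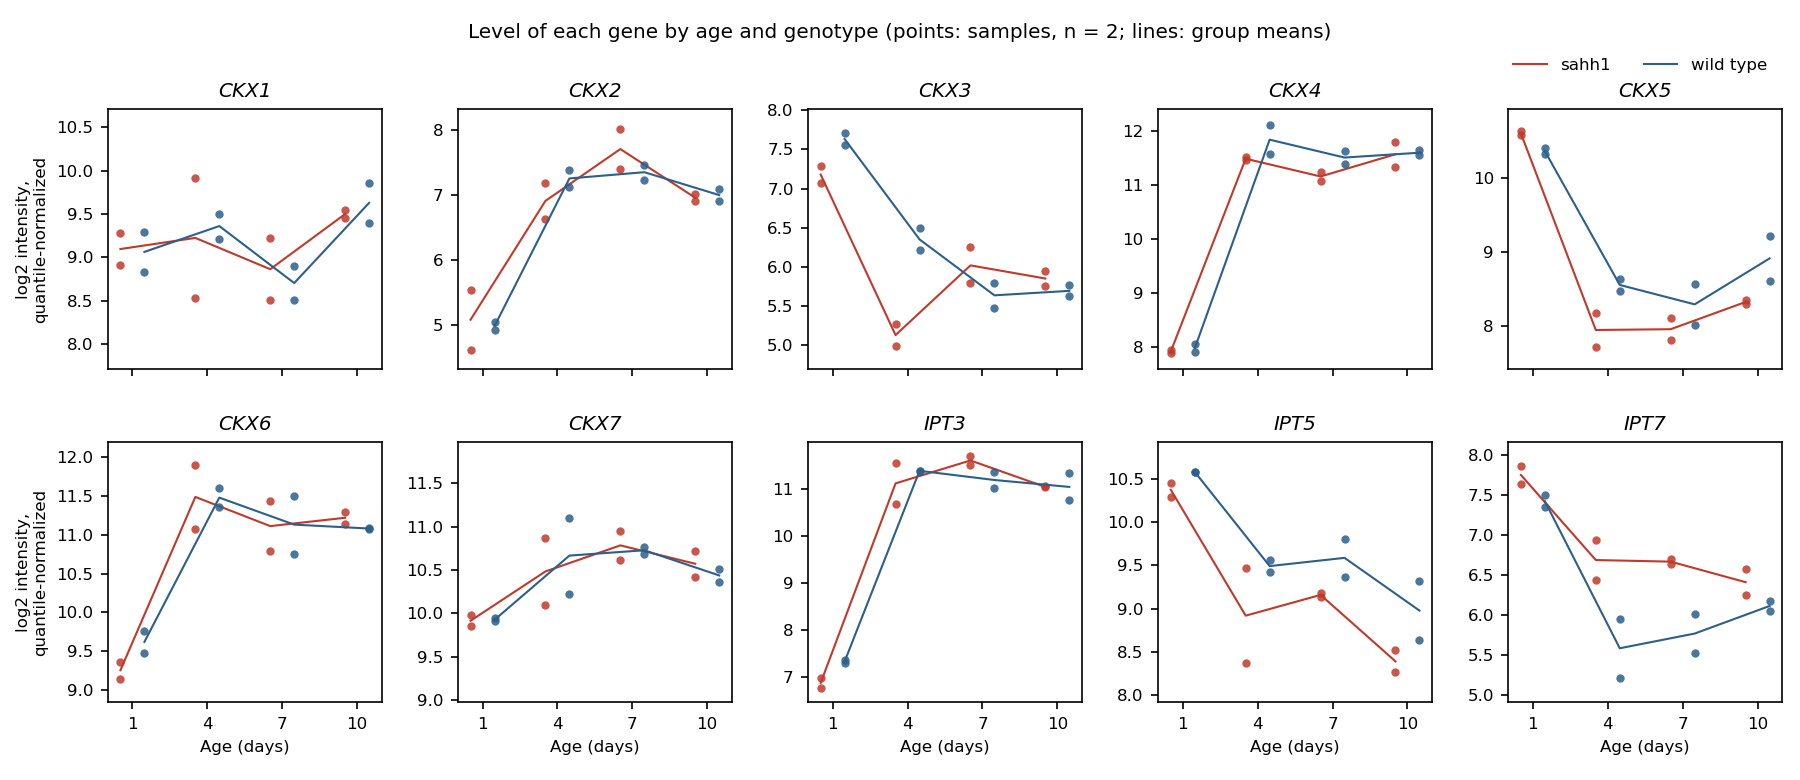
Quantile-normalized log2 intensity of each gene against seedling age in days, with a panel for each gene and its own axis. Points are samples (n = 2 per group) and lines join group means, red for sahh1 and blue for wild type. IPT3, CKX2, CKX4 and CKX6 lie higher from day 4 on than at day 1, while CKX3, CKX5, IPT5 and IPT7 lie lower, and IPT7 is higher in sahh1 at every age.

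Across the 8 group means the genes fell into opposed sets, given here as a description, since 8 group means of 4 ages and 2 genotypes are not independent points. CKX4 and IPT3 had a Pearson correlation of 0.98, CKX2 and IPT3 0.98, and CKX6 and CKX4 0.98. CKX7 went with them despite its narrow range, at 0.99 to CKX2 and 0.96 to IPT3. CKX5 ran against them, with -0.96 to IPT3 and -0.93 to CKX4, and was closest to CKX3 at 0.89. IPT5 and IPT7 correlated at 0.56 with each other and at -0.83 and -0.85 with IPT3. CKX1 stood apart, with no correlation above 0.26 and its lowest at -0.46 with IPT5. The range of the group means was 4.74 for IPT3, 3.93 for CKX4 and 2.72 for CKX2, and it was narrowest for CKX7 at 0.87 and CKX1 at 0.93.

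For the 3 genes of widest range the most similar loci were sought among 14686 that varied and were not dim. IPT3 was matched by SPL10 (r = 0.999) and AT3G19030 (0.998). CKX4 was matched by ASN1 (0.999), which encodes an asparagine synthetase, and by TAP38 (0.999), a thylakoid phosphatase gene. CKX2 was matched by AT5G39590 and AT5G66440 (0.997 each). These matches are not rare, since 1953, 2053 and 1223 loci had r over 0.95 to IPT3, CKX4 and CKX2 over the 8 groups.

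Of 61 other cytokinin genes examined, none was called at days 1, 7 and 10, 2 were called lower in sahh1 at day 4, and 2 were called lower on the mean of the ages (adjusted p under 0.05, limma). At an unadjusted p under 0.05 there were 5 at day 1, 12 at day 4, 2 at day 7, 8 at day 10 and 9 on the mean. Over all loci the called shares were 2.46%, 1.61%, 0.629% and 1.02% at the successive ages and 3.48% on the mean. The unadjusted shares were 7.44%, 15.1%, 7.47%, 6.98% and 12.6%. Of the 8 genes at day 10, 5 were type-A response regulators. Whether the 61 genes as a set differ from all loci was not tested. None was called higher in a genotype comparison. The 6 remaining isopentenyltransferase genes, which include the enzymes that modify tRNA, had mean differences of -0.12 to 0.18 and none called.

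LOG7, which releases active cytokinin bases from their nucleotides, was lower in sahh1 on the mean of the ages (-0.43 ± 0.07, adjusted p = 0.00555, limma), and the call held in 24 of 25 alternative settings. At day 4 it read 11.19 and 11.25 in sahh1 against 11.81 and 11.90 in wild type, and at day 7 12.88 and 12.84 in sahh1 against 13.33 and 13.37 in wild type. At day 10 it read 11.71 and 11.50 in sahh1 and 12.33 and 12.12 in wild type. Both sahh1 samples lay below both wild-type samples at these ages, and at day 1 they overlapped (11.07 and 11.26 in sahh1, 11.29 and 11.00 in wild type). The other 9 genes for trans-hydroxylation and activation were not called on that mean, with differences down to -0.43.

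UGT85A1, which stores trans-zeatin as its O-glucoside, was lower in sahh1 at day 4 (-1.14 ± 0.25, adjusted p = 0.0462, limma), at 12.22 and 12.52 in sahh1 against 13.48 and 13.55 in wild type. This call held in 7 of 25 alternative settings, with adjusted p-values up to 0.887. The 5 transport genes and the 9 receptor and phosphotransfer genes had no call between genotypes.

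The type-A response regulators are rapidly induced by cytokinin and damp its signal. Of the 10 measured, ARR3 was lower in sahh1 at day 4 (-1.09 ± 0.19, adjusted p = 0.0244, limma), at 6.73 and 6.49 in sahh1 against 7.72 and 7.68 in wild type. This call held in 20 of 25 alternative settings and did not hold once either wild-type array pair of day 4 was left out (adjusted p = 0.114 for sample 1, 0.143 for sample 2), with array weights (0.725), with the sample as a random block (0.118) and with the groups of that age alone (0.469, limma). Its difference changed with age (F test adjusted p = 0.0338), a call that held in 7 of 25 alternative settings (adjusted p up to 0.890, limma). At day 10 all 10 type-A genes had a negative difference, with a median of -0.49 against -0.01 over all loci. None of them was called, and 5 had an unadjusted p under 0.05, against 6.98% of all loci. Among the 7 type-B regulators, the transcription factors of the pathway, ARR11 was lower on the mean of the ages (-0.54 ± 0.12, adjusted p = 0.0349, limma), a call that held in 11 of 25 settings. None of the 6 cytokinin response factors was called.

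**Figure D5:**
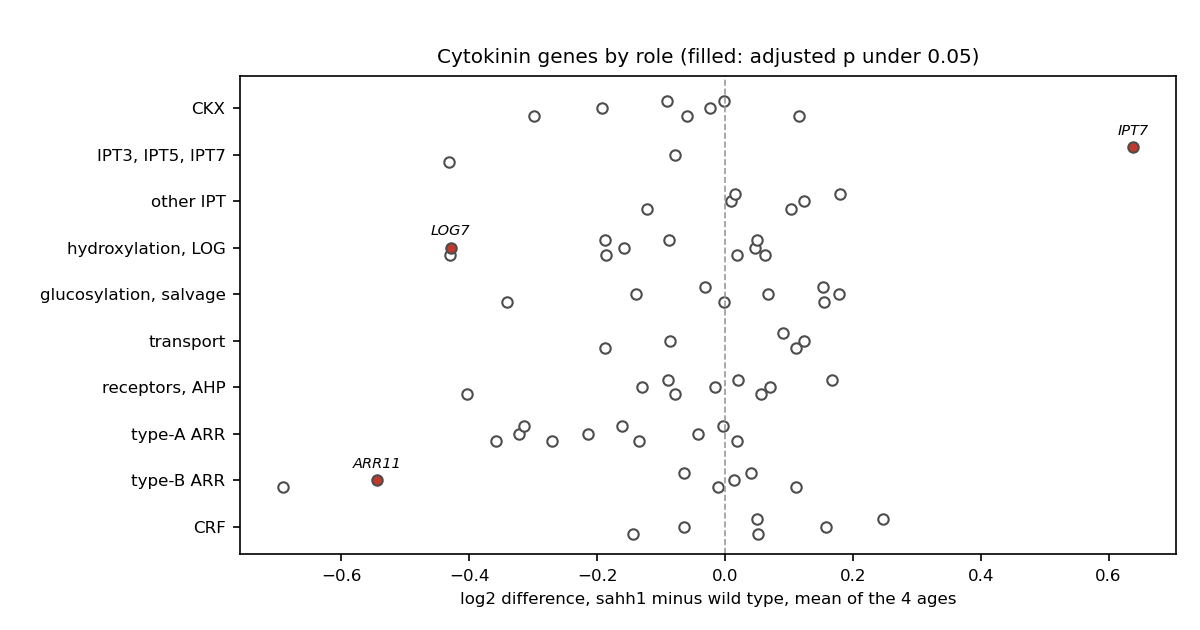
Log2 difference, sahh1 minus wild type, on the mean of the 4 ages for the CKX and IPT genes and the 61 other cytokinin genes, grouped by role down the page. Each point is a gene and filled points have an adjusted p under 0.05. IPT7 lies to the right at 0.64, and LOG7 (-0.43) and ARR11 (-0.54) are the filled points on the left.

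Between days 4 and 1, 21 of the 61 other cytokinin genes rose and 13 fell in sahh1, and 22 rose and 15 fell in wild type. Over all loci 49.1% were called in sahh1 and 51.8% in wild type, so these counts lie near the background. Of 5 transport genes 4 rose in both genotypes, and of the type-A regulators 5 rose and 2 fell in both. Of 10 genes of the nitrate response, listed because IPT3 responds to nitrate, 7 rose and 1 fell in sahh1, and 8 rose in wild type. None of these 10 was called between genotypes at any age, on the mean of the ages or by the F test over ages, and an unadjusted p under 0.05 was found for 2 at day 4 and for 0 at the other ages and on their mean. At day 4 all 10 had a negative difference, with a median of -0.22 against 0.02 over all loci. At days 7 and 10, 8 were positive and 2 negative.

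The loci next to the 10 genes were examined for shared differences, 2 on each side. Of 40 neighbours 1 was called between the genotypes on the mean of the ages, AT5G56990 near CKX3 (-0.49, adjusted p = 0.0138, limma), against 3.48% of all loci. At a single age or on the mean 2 were called, the other being AT5G21430 (NdhU) next to CKX7. The share of all loci called at a single age or on the mean was not counted, so this count has no background beside it. The 4 neighbours of IPT7 had differences of -0.02 to 0.16 on that mean and none was called.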

How the data were processed

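Each array gives 1 value per locus for total RNA labelled with Cy3. Per the submitters' processing notes the authors used RMA, with no version given. The deposited values are intensities on a linear scale, and log2 was taken here. Arrays 1 and 2, and 3 and 4, of each group were averaged on the log2 scale because an earlier analysis of these data found them closer within these pairs. Over all loci the median gap here was 0.11 to 0.19 within pairs and 0.13 to 0.40 between the samples of a group. For the 10 genes the within-pair gap was the larger in wild type at day 4 (0.28 against 0.21) and day 10 (0.19 against 0.18). Limma 3.58.1 in R 4.3.3 fitted 8 group means to 16 samples (8 residual degrees of freedom, prior 3.16 for genotype and 2.54 for age), with Benjamini-Hochberg adjustment over 30385 loci. Ages and the F test used quantile normalization over all 32 arrays. The genome build is not given in the sources used here.

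The 10 genes, the gene lists, the pairs and the tests were chosen with earlier results of these data known. All 10 genes are named, other cytokinin or nitrate genes where called between genotypes or by the F test (at most 4 a list), and the 2 most similar loci of the 3 genes of widest range among those above the lower quartile in level. Symbols are the usual ones; the reference lists SAHH1 as HOG1 and ARR genes as RR. With 2 samples against 2, an exact permutation test cannot go below 0.333. The number of arrays limits precision. The fit was also run on simulated data with independent noise and, for each locus, the same spread in all groups. The real groups differ in spread, so that run does not cover sahh1 at day 4. Alternatives were other normalizations, a filter on dim loci, array weights, arrays as replicates, a replicate block, fewer groups and leaving out each sample.

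Same-numbered samples of both genotypes did not deviate together throughout (correlations -0.48, 0.19, 0.75 and -0.17 at days 1, 4, 7 and 10), so the numbers were not taken to pair the samples.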

Additional observations from a re-analysis of the deposited data

Results flagged for a closer look

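Of 80 sets of 4 arrays 1 had an array far from the rest. The rate of 1 in 20 that chance gives holds for independent arrays. Over all loci arrays were closer within pairs, so the count cannot be set against that rate. For CKX4 in wild type at day 10, array 3 read 11.77 and the others 11.53 to 11.55.

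Some genes had every sahh1 sample on one side of wild type at one age and on the other side at another age. The share of all loci with such a turn was not counted. The sizes below are on the deposited values, while the tests used quantile-normalized values. Of the pairs of ages below, the one of days 1 and 4 was tested, for CKX5 (day 4 minus day 1: -0.85, adjusted p = 0.311, limma). The others were not tested as pairs. For CKX3 the genotype difference at day 10 exceeded that at day 1 by 0.708 and that at day 4 by 0.754. For CKX5 the difference at day 1 exceeded that at day 4 by 0.785 and that at day 10 by 0.838. For CKX6 the difference at day 10 exceeded that at day 1 by 0.523, and for IPT3 the difference at day 7 exceeded that at day 1 by 0.889. The F test over all ages called none of these genes (adjusted p = 0.0726, 0.672, 1.00 and 0.809 for CKX3, CKX5, CKX6 and IPT3, limma).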

How the results depend on the processing

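The IPT7 call on the mean of the ages held in 25 of 25 alternatives. Counts of called genes among the 10 that moved by over 1.5 times, given by setting, were as follows, while between days 4 and 1 the count of 8 became 7 to 9 in both genotypes. There reference-gene scaling ended the calls of CKX3 and IPT7 and added CKX7 in both. With quantile normalization 2 were called at day 4. On the deposited values 10 were called in sahh1 and 9 in wild type between days 7 and 4, and 8 in sahh1 and 7 in wild type between days 10 and 7. With reference-gene scaling 0 were called in sahh1 and 2 in wild type between days 7 and 4, and 2 in sahh1 between days 10 and 7. With array weights 0 were called in sahh1 between days 7 and 4. With 32 arrays as replicates 1 was called at day 4, 1 at day 7 and 2 on the mean of the ages, 2 in sahh1 and 0 in wild type between days 7 and 4, and 4 in sahh1 and 2 in wild type between days 10 and 7. With the sample as a random block 0 were called in either genotype between days 7 and 4.

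Leaving out 1 sample at a time gave 0 to 1 genes at day 7, 1 to 2 on the mean of the ages and 0 to 1 by the F test. Between days 4 and 1 it gave 8 to 9 in sahh1 and 7 to 9 in wild type, and between days 7 and 4 it gave 0 to 2 in sahh1 and 0 to 1 in wild type. At days 1, 4 and 10, and between days 10 and 7, it gave 0 throughout. With the replicate block the count on the mean of the ages was 1 and that at each single age 0, and it changed no call among the 10 genes.

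Directions turned between ages on other scales. On the deposited values, between days 7 and 4, the sahh1 differences were 1.74 for CKX1, 1.56 for CKX4, 1.50 for CKX6 and 1.34 for IPT7. The wild-type differences were 1.38 for CKX1, 0.37 for CKX3, 1.51 for CKX4, 1.77 for CKX5, 1.54 for CKX6 and 1.68 for IPT3. Between days 10 and 7 they were -0.65 for CKX5 and -0.80 for CKX6 in sahh1, and -0.79 for CKX3 and -0.75 for CKX4 in wild type. On that scale the median of all loci moved by 1.43 in sahh1 and 1.40 in wild type between days 7 and 4. With reference-gene scaling IPT7 was at 0.040 in sahh1 between days 4 and 1 and at -0.76 in wild type between days 7 and 4, and CKX3 at -0.50 in sahh1 between days 7 and 4. The cause was not tested.

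Over all loci the alternatives called 423 to 1736 loci for day 1, 11 to 5366 for day 4, 25 to 1025 for day 7, 158 to 1303 for day 10, 804 to 3580 on the mean of the ages and 57 to 3153 by the F test. Between days 4 and 1 they called 9362 to 25214 in sahh1 and 12352 to 25217 in wild type, between days 7 and 4 they called 39 to 25496 in sahh1 and 2974 to 25114 in wild type, and between days 10 and 7 up to 18457 in sahh1 and 18887 in wild type. Among the 61 other cytokinin genes they called 0 to 12 at day 4 and 0 to 9 on the mean of the ages. With 2 samples per group, and low levels of CKX2, CKX3 and IPT7 over background, small differences cannot be resolved.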
